A study of Mus musculus with 8 samples.

Results

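The genes of 6 chemokines known to be made by activated T cells, Ccl1, Ccl3, Ccl4, Ccl5, Xcl1 and Cxcl10, were followed in primary mouse CD4+ T cells. They are 6 of 18193 genes named on the array, and each was read by the 1 probe set (a group of short oligonucleotides for a transcript) that the platform annotation gives to that gene symbol alone. Their Entrez gene identifiers are 20290 for Ccl1, 20302 for Ccl3, 20303 for Ccl4, 20304 for Ccl5, 16963 for Xcl1 and 15945 for Cxcl10. The cells came from BALB/c mice and were labelled as primary cultures. Expression was measured on 8 Affymetrix arrays in 4 groups of 2. The groups were stimulated cells with dorsomorphin, stimulated cells without it, unstimulated cells with dorsomorphin, and control cells with neither. Stimulated cells were cultured for 1 h with plate-bound antibody to CD3, part of the T cell receptor complex, and soluble antibody to the costimulator CD28, and the other 2 groups were cultured without them. Dorsomorphin at 4 µM was then present for 6 h in both drug groups, and its solvent DMSO in the other 2. Dorsomorphin blocks signalling by bone morphogenetic protein receptors of type I and also inhibits the kinase AMPK. Whether the replicates came from different mice or cultures is not in the labels, and p-values below therefore reflect array-to-array spread, possibly of technical origin.

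Chemokines are small secreted proteins that bind G protein-coupled receptors and direct the migration of leukocytes. They are classed by the spacing of their first cysteines into CC (Ccl), CXC (Cxcl) and C (Xcl) types. T cells whose receptor has been engaged are known to transcribe several of them quickly, through NFAT and NF-kappaB factors, and Cxcl10 is best known as a gene induced by interferons. Ccl3 and Ccl4 (the macrophage inflammatory proteins) and Ccl5 (RANTES) attract monocytes and T cells, Ccl1 binds Ccr8, Xcl1 (lymphotactin) binds Xcr1 on cross-presenting dendritic cells, and Cxcl10 binds Cxcr3 on T cells.

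Since 4 of the 6 genes moved together in the arrays, the 250 bases before the annotated start of those members found in the RefSeq promoter table used here (build GRCm38.p6) are shown, 5′ to 3′ on the gene's strand. The table matched 4 of 6 members, and windows of Ccl4 and Ccl5 were not analysed here. Capitals mark matches, on either strand, to any of 4 motifs, which are the NF-kappaB motif, the NFAT core GGAAA, the AP-1 motif TGANTCA and the interferon-stimulated element, in which GAAA is followed after any 2 bases by GAAA. Ccl1 lies on the minus strand at chr11:82179813-82180062, Ccl3 on the minus strand at chr11:83649379-83649628, Xcl1 on the minus strand at chr1:164935523-164935772 and Cxcl10 on the minus strand at chr5:92348890-92349139.
Ccl1: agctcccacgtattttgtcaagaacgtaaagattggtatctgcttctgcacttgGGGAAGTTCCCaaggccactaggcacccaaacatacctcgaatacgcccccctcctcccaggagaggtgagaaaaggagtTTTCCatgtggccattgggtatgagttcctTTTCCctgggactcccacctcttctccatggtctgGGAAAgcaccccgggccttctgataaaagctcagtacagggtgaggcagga
Ccl3: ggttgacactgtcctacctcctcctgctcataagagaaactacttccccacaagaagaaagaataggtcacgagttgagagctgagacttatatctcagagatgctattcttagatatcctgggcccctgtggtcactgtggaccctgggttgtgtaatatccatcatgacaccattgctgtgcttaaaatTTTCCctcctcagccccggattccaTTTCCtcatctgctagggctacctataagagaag
Xcl1: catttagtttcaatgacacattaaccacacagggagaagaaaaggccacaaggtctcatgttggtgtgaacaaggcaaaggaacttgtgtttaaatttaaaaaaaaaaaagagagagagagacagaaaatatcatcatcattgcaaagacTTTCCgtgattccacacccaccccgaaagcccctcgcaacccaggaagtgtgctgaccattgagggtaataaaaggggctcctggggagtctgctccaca
Cxcl10: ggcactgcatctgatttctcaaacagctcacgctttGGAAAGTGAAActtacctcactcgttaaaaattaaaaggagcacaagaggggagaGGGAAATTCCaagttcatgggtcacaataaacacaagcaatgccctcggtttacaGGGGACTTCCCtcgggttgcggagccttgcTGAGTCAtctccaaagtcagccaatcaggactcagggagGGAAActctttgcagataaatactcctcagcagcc

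The Ccl1 window held 1 NF-kappaB match, GGGAAGTTCCC, which begins 196 bases before the start and joins overlapping matches on the 2 strands. The Cxcl10 window held 2 separate NF-kappaB matches, GGGAAATTCC at 159 and GGGGACTTCCC at 104 bases before the start, the second also joining overlapping matches. It also held 1 AP-1 match, TGAGTCA, and 1 interferon-stimulated element, GAAAGTGAAA, which starts 213 bases before the start. One of the 3 NFAT cores in Cxcl10 overlaps that element and another overlaps an NF-kappaB match. Ccl1 had 3 NFAT cores, Ccl3 had 2 and Xcl1 had 1, and for Ccl3 and Xcl1 these were the only matches among the 4 motifs. Of 32851 windows of this length for all genes, 7.25% held the NF-kappaB motif, 55.6% the NFAT core, 6.75% the AP-1 motif and 2.98% the interferon-stimulated element. A match describes the letters of the window and is not evidence of binding.

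Values below are log2 of the deposited signal, on which 1 unit is a doubling. Levels of different probe sets are not comparable, and a summed signal over a list is weighted to its brightest probe sets. Arrays of 1 group correlated at 0.937 to 0.953 across the 13983 genes tested (Pearson's r, genes not being independent replicates). Stimulated replicate 2 had the lowest median signal, 45.4, against 56.0 to 74.5 on the other arrays. The 40th percentile of all values, log2 5.22, served as a working floor, because no detection calls were used. All 6 members passed the filter of 2 arrays above it. The 6 CD4 T cell markers on the array (Cd3e, Cd3d, Cd3g, Cd4, Cd5 and Thy1) lay above the floor on every array, with summed signals of 18865 and 19328 in stimulated cells with dorsomorphin, 39681 and 41533 in stimulated cells, 13442 and 19308 with dorsomorphin alone, and 55376 and 56571 in control cells. Of these 6, 5 (Cd3e, Cd3d, Cd3g, Cd5 and Thy1) fell with dorsomorphin alone (limma adjusted p under 0.05), beside 11.1% of all tested genes. With dorsomorphin in stimulated cells 2 (Cd3g and Cd5) fell, beside 12.4% of all genes. With stimulation 1 (Thy1) fell, beside 14.4%, and with both agents against neither 3 (Cd3e, Cd3g and Thy1) fell, beside 6.31%. Of the 6 markers, 0 rose in any of these comparisons. Their part in the results below was not tested. In bulk RNA, fewer cells of a type and less RNA per cell cannot be told apart.

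Stimulation without the drug raised Ccl1, Ccl3, Ccl4 and Xcl1. Cxcl10 was higher on both stimulated arrays without passing the test, and Ccl5 stayed within the spread of its arrays. Thus 4 of 6 members rose and 0 fell, where 8.98% of all tested genes rose and 14.4% fell (limma, Benjamini-Hochberg adjusted p under 0.05 over 13983 genes, 8 arrays in 1 fit). Over all genes the median log2 fold was -0.27.

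Ccl1, the Ccr8 ligand, read 11.78 and 13.08 in stimulated cells, against 3.67 and 5.10 in control cells. Both control arrays lay under the floor and both stimulated arrays far above it. Against the floor, Ccl1 was at least 148-fold higher in stimulated cells (group means 12.43 ± 0.92 and 4.38 ± 1.01, SD, n = 2 each, limma adjusted p = 0.00851).

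Xcl1, the lymphotactin gene, read 11.84 and 11.10 in stimulated cells, against 5.54 and 6.18 in control cells. The groups did not overlap. Its log2 fold was 5.61 ± 1.01 (SE, n = 2 per group, limma adjusted p = 0.0175), a 48.9-fold rise.

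Ccl4 read 11.24 and 12.16 in stimulated cells, against 7.47 and 7.20 in control cells. It rose 20.6-fold, by 4.37 ± 0.56 log2 units (SE, limma adjusted p = 0.0103). Ccl3, the gene next to Ccl4 on chromosome 11, read 10.04 and 11.03 in stimulated cells, against 6.20 and 6.55 in control cells. It rose 17.9-fold, by 4.16 ± 0.54 log2 units (SE, limma adjusted p = 0.0105). For both genes every stimulated array exceeded every control array, and the 95% intervals of the log2 folds, 2.99 to 5.75 for Ccl4 and 2.82 to 5.49 for Ccl3, largely coincide.

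Cxcl10, the interferon-induced Cxcr3 ligand, read 9.27 and 8.32 in stimulated cells, against 6.59 and 6.04 in control cells. The groups did not overlap, but the log2 fold of 2.49 ± 0.75 (SE) missed the threshold (limma adjusted p = 0.0616). It passed under several alternatives, with the strict filter (adjusted p = 0.0252), with 32 added to the signal (0.0225) or with a trended and robust variance (0.0145), and also without either array of stimulated cells with dorsomorphin (0.0244).

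Ccl5, which is known in human T cells as a gene induced late after activation, read 10.01 and 8.76 in stimulated cells, against 10.12 and 9.84 in control cells. The groups overlapped. The log2 fold was -0.59 ± 0.47 (SE, 95% interval -1.74 to 0.56, limma adjusted p = 0.408), an interval that lies below those of Ccl1, Ccl3, Ccl4 and Xcl1. Without stimulated replicate 2, which had the lowest value, the log2 fold was 0.03.

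The calls of stimulation rested on both control arrays. Without control replicate 1 or 2, 0 members passed by limma, with adjusted p between 0.0641 and 0.0958 for Ccl1, Ccl3, Ccl4 and Xcl1, and 5 and 4 members had an unadjusted p under 0.05. Xcl1 was also not called without stimulated replicate 1 (adjusted p = 0.0538) or stimulated replicate 2 (adjusted p = 0.0694).

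**Figure D1:**
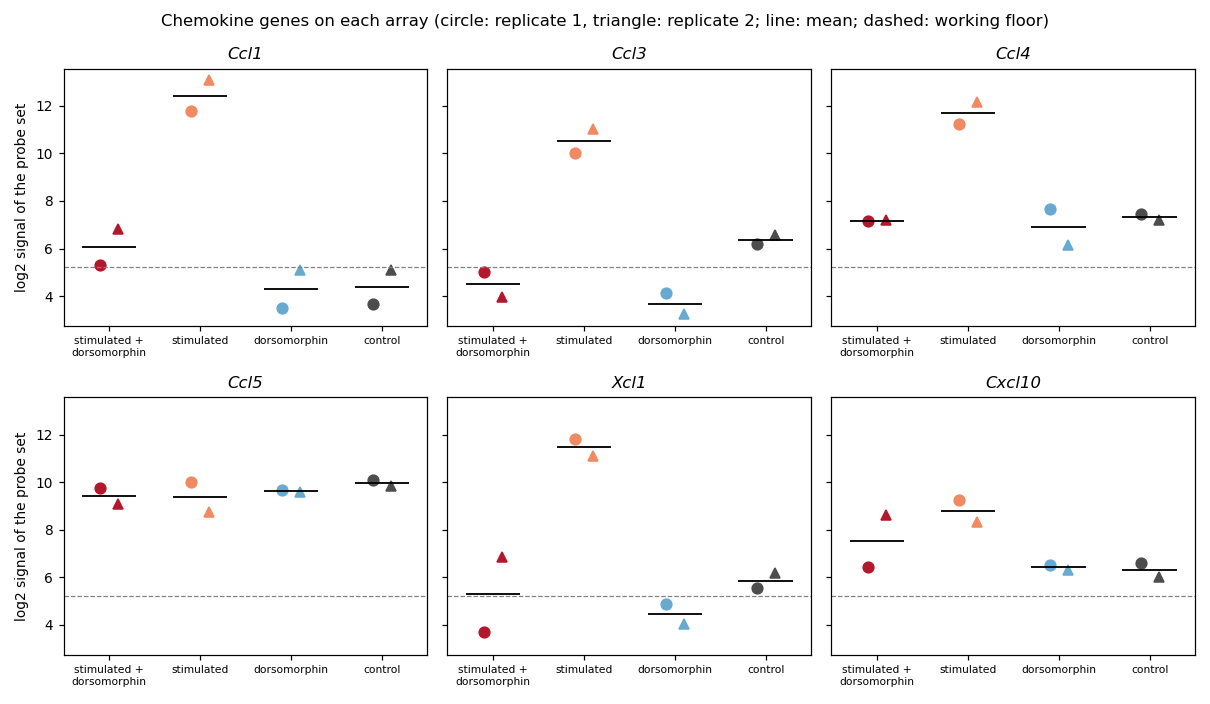
Log2 signal (vertical axis) of the 6 chemokine genes on each array by group, with circles for replicate 1, triangles for replicate 2, a line at the mean and a dashed line at the working floor of 5.22. Ccl1, Ccl3, Ccl4 and Xcl1 are at 10.04 or more on both stimulated arrays and at 7.68 or less on the other 6, while Ccl5 stays between 8.76 and 10.12.

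With dorsomorphin, the same genes were low in stimulated cells. Ccl1, Ccl3, Ccl4 and Xcl1 fell relative to stimulated cells without the drug, which is 4 of 6 members down and 0 up, where 12.4% of all tested genes fell and 9.71% rose (limma adjusted p under 0.05). These folds share the stimulated arrays with those of stimulation, so the falls and the rises are not separate evidence. Over all genes the median was 0.07.

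Ccl3 read 5.03 and 3.95 in stimulated cells with dorsomorphin, against 10.04 and 11.03 in stimulated cells. With both drug arrays under the floor, it was at least 39.8-fold lower (group means 4.49 ± 0.76 and 10.53 ± 0.70, SD, n = 2 each, limma adjusted p = 0.00576). Ccl1 read 5.31 and 6.80 in stimulated cells with dorsomorphin, against 11.78 and 13.08 in stimulated cells, and fell by 6.38 ± 0.87 log2 units (SE, limma adjusted p = 0.00863). Ccl1 was thus above the floor on both arrays with the drug, and Ccl3 on neither.

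Ccl4 read 7.16 and 7.19 in stimulated cells with dorsomorphin, against 11.24 and 12.16 in stimulated cells, and fell by 4.53 ± 0.56 log2 units (SE, limma adjusted p = 0.0073). Xcl1 read 3.71 and 6.87 in stimulated cells with dorsomorphin, against 11.84 and 11.10 in stimulated cells, and fell by 6.18 ± 1.01 (SE, limma adjusted p = 0.0129). The 2 drug arrays of Xcl1 lay on either side of the floor. Without stimulated replicate 2, Xcl1 was not called (adjusted p = 0.0537).

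Cxcl10 behaved unevenly between the drug arrays, and Ccl1 and Xcl1 were likewise higher on replicate 2 of stimulated cells with dorsomorphin. Ccl5 was lower there, Ccl4 nearly equal, and Ccl3 under the floor on both arrays. Cxcl10 read 6.42 and 8.64 in stimulated cells with dorsomorphin, against 9.27 and 8.32 in stimulated cells. The groups overlapped, and the log2 fold was -1.26 ± 0.75 (SE, 95% interval -3.10 to 0.58, limma adjusted p = 0.284). Without replicate 2 of stimulated cells with dorsomorphin, the array at 8.64, the log2 fold was -2.37. With each array left out in turn, it ranged from -2.37 to -0.15, so its size hung on single arrays. Ccl5 read 9.78 and 9.07 in stimulated cells with dorsomorphin, against 10.01 and 8.76 in stimulated cells, a log2 fold of 0.04 ± 0.47 (SE, 95% interval -1.10 to 1.19). With only the 4 arrays of this comparison in the fit, 0 members passed by limma, with adjusted p of 0.0605 for Ccl1, Ccl3 and Ccl4 and 0.0711 for Xcl1, and 4 members had an unadjusted p under 0.05.

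**Figure D2:**
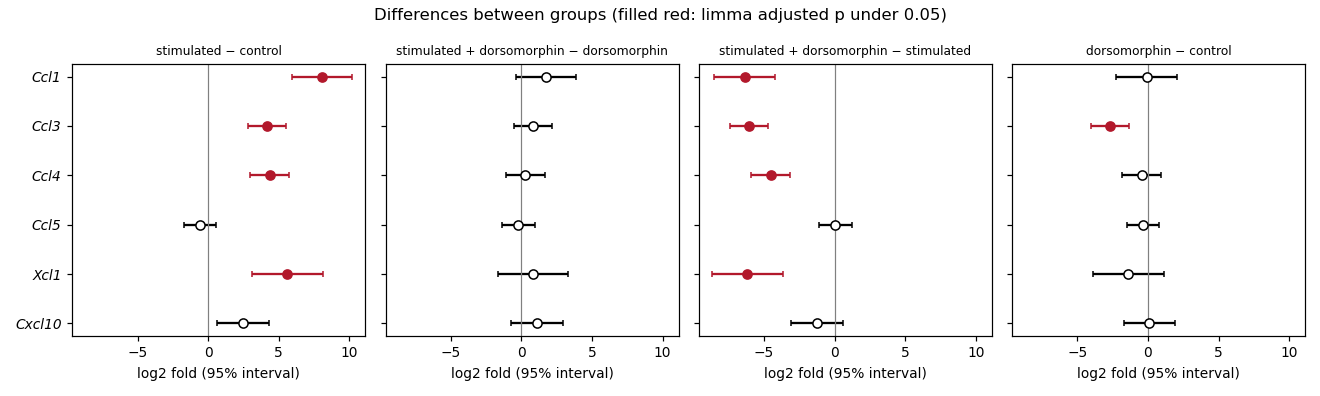
Log2 fold (horizontal axis) of each chemokine gene in 4 comparisons, with points for limma estimates (fitted also to values under the floor), bars for 95% intervals and filled red points for an adjusted p under 0.05. Ccl1, Ccl3, Ccl4 and Xcl1 rise with stimulation and fall with dorsomorphin in stimulated cells, Ccl3 falls with dorsomorphin alone, and no gene passes for stimulation in the presence of the drug.

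In the presence of dorsomorphin, no member passed for stimulation. Between stimulated cells with dorsomorphin and cells with dorsomorphin alone 0 of 6 were called (0 of 6 at an unadjusted p under 0.05), and 0% of all tested genes passed by limma in either direction. At an unadjusted p under 0.05 there were 539 of 13983 genes, a share under the 0.05 that such a threshold passes without any difference. Ccl1 read 5.31 and 6.80 in stimulated cells with dorsomorphin, against 3.503 and 5.09 with dorsomorphin alone. Its mean was at least 1.78-fold higher against the floor, but the 95% interval of the log2 fold, -0.38 to 3.90, included no change. The groups of Ccl1 did not overlap. Ccl3 lay under the floor on all 4 arrays, so no difference could be measured, and Xcl1 lay above it on 1 of the 4. For the members above the floor on all 4 arrays, the 95% intervals of the log2 folds were -1.11 to 1.64 for Ccl4, -1.37 to 0.93 for Ccl5 and -0.73 to 2.95 for Cxcl10. The upper bound of Ccl4 lay under its log2 fold without the drug, 4.37, and that of Cxcl10 lay above its own, 2.49.

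The test of the difference between the stimulation effects with and without dorsomorphin called 0 of 6 members, where 0.0358% of all genes were called up and 0.0501% down. For the members above the floor on all 8 arrays its log2 values were -4.10 ± 0.79 for Ccl4 (SE, limma adjusted p = 0.0684), -1.37 ± 1.06 for Cxcl10 (0.454) and 0.37 ± 0.66 for Ccl5 (0.757). The adjusted p was 0.0698 for Ccl1, 0.0804 for Ccl3 and 0.112 for Xcl1, whose sizes are not given because groups in the difference lay under the floor. Of the 6, 4 had an unadjusted p under 0.05. The call depended on the setting: Ccl1, Ccl3, Ccl4 and Xcl1 passed with the strict filter, with 32 added to the signal and with the trended robust variance, and Ccl3 and Ccl4 with quantile normalization.

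In unstimulated cells, dorsomorphin lowered Ccl3. It read 4.13 and 3.24 with dorsomorphin alone, against 6.20 and 6.55 in control cells, and was at least 2.23-fold lower, since both drug arrays lay under the floor (limma adjusted p = 0.03255). Ccl3 was the 1 member of 6 that passed, where 11.1% of all tested genes fell and 1.92% rose. The share of members is near that background. Xcl1 read 4.90 and 4.05 with dorsomorphin alone, against 5.54 and 6.18 in control cells, and did not pass (limma adjusted p = 0.409). Its mean was at least 1.56-fold lower against the floor, but the 95% interval of the log2 fold, -3.88 to 1.11, included no change. The groups of Xcl1 did not overlap. Ccl4, the neighbour of Ccl3, read 7.68 and 6.14 with dorsomorphin alone, against 7.47 and 7.20 in control cells, and its groups overlapped (log2 fold -0.42, 95% interval -1.80 to 0.96). Ccl5 read 9.68 and 9.62 with dorsomorphin alone against 10.12 and 9.84 in control cells, and Cxcl10 read 6.53 and 6.32 with dorsomorphin alone against 6.59 and 6.04 in control cells, and neither passed. Ccl1 was under the floor on all 4 arrays. The fall of Ccl3 was not called without either control array (adjusted p = 0.126 and 0.168), without dorsomorphin replicate 1 (0.0534) or 2 (0.150), with median centring (0.0665), without the filter (0.0583) or with only the arrays of the comparison (0.0502). Among the 9 tested markers of myeloid and dendritic cells, which also make Ccl3, Csf1r and Adgre1 fell as well (2 of 9, 0 up). Their summed signals were 1448 and 1311 with dorsomorphin alone, against 2982 and 3919 in control cells, with 2 and 3 of the 9 under the floor on the drug arrays and 0 and 1 on the control arrays. Their part in the result was not tested.

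Set against control cells, the level with both agents differed from the level with neither for 0 of 6 members (0.915% of all genes rose and 6.31% fell by limma, and 1 of 6 members had an unadjusted p under 0.05). Ccl3 was lower with both agents on both arrays, at least 2.23-fold, without passing (limma adjusted p = 0.0943), and it passed with the strict filter (0.0395). Ccl1 was higher with both agents on both arrays, at least 1.78-fold, without passing (limma adjusted p = 0.286), and it passed with the replicate block described below. The order of group means ran, from high to low, stimulated and stimulated with dorsomorphin for Ccl1, and stimulated and control for Ccl3, with the other 2 groups of each under the floor and without order. For Xcl1 it ran stimulated, control and stimulated with dorsomorphin, with dorsomorphin alone under the floor. For Ccl4 it ran stimulated, control, stimulated with dorsomorphin and dorsomorphin alone, at 11.70 ± 0.65, 7.33 ± 0.19, 7.17 ± 0.02 and 6.91 ± 1.08 (SD, n = 2 each). Next to each other in these orders, arrays overlapped for Ccl4 between both drug groups and for Xcl1 between control and stimulated with dorsomorphin. For Ccl4 the lower control array (7.20) lay just above the higher array with both agents (7.19). For Cxcl10 the order was stimulated, stimulated with dorsomorphin, dorsomorphin alone and control, and arrays overlapped at every step. For Ccl5 it ran control, dorsomorphin alone, stimulated with dorsomorphin and stimulated, from 9.98 ± 0.20 to 9.39 ± 0.88, with control and dorsomorphin alone the only neighbours whose arrays did not overlap.

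Ccl3 and Ccl4 are neighbours on chromosome 11 in the RefSeq annotation, where the order is Ccl5, Ccl9, Ccl6, Ccl3, Ccl4. In stimulated against control cells the log2 folds along that order were -0.59 for Ccl5, -1.11 for Ccl9, -0.90 for Ccl6, 4.16 for Ccl3 and 4.37 for Ccl4. Thus the genes at 1 end of the run rose, and the other 3 did not pass. Ccl9, which encodes a CC chemokine made by myeloid cells, fell with dorsomorphin alone by 2.87 ± 0.54 log2 units (SE, limma adjusted p = 0.0286). Ccl1 lies in another group of CC chemokine genes on chromosome 11, beside Ccl8. Cxcl10 is on chromosome 5 near Cxcl9, and Xcl1 is on chromosome 1.

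The other chemokine genes were taken as a list of 31, of which 29 were on the array and 24 passed the filter. With stimulation 4 of 24 rose and 0 fell, where 8.98% of all genes rose, and the list's median log2 fold was -0.35 beside -0.27 for all genes. The genes that rose were Ccl20, a ligand of Ccr6, at least 10.5-fold (limma adjusted p = 0.0186), Cxcl9, another interferon-induced Cxcr3 ligand, at least 5.11-fold (0.0146), Ccl17 by 4.28 ± 0.87 log2 units (SE, 0.0228) and Ccl22 by 3.38 ± 0.37 (SE, 0.00851). Ccl17 and Ccl22 both bind Ccr4 and are known mainly from dendritic cells. Ccl22 read 11.07 and 10.26 in stimulated cells, against 7.50 and 7.07 in control cells. Ccl17 read 8.66 and 8.26 in stimulated cells, against 2.90 and 5.45 in control cells. The first control value lay under the floor, so the size of the Ccl17 fold is uncertain. Beside these rises, Lyz2, Csf1r and Adgre1 fell among the 9 myeloid and dendritic markers and 0 rose, where 14.4% of all genes fell. The summed signals of these markers were 1456 and 781 in stimulated cells, against 2982 and 3919 in control cells. With both agents against neither, Lyz2 and Adgre1 fell (2 of 9, where 6.31% of all genes fell).

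With dorsomorphin in stimulated cells 3 of the 24 fell and 1 rose, where 12.4% of all genes fell and 9.71% rose, and the median was -0.77 beside 0.07. Ccl22 fell by 3.25 ± 0.37 log2 units (SE, limma adjusted p = 0.00651), Cxcl9 was at least 5.11-fold lower (0.0234), Cxcl3, a neutrophil chemoattractant, fell by 2.08 ± 0.50 (0.0354), and Ccl8, a monocyte chemoattractant, rose by 2.30 ± 0.59 (0.0414). With dorsomorphin alone Ccl9 fell and 0 rose (1 of 24, where 11.1% of all genes fell). With both agents against neither, Ccl9 also fell (1 of 24, where 6.31% of all genes fell). Neither count exceeds the share of all genes. For stimulation in the presence of the drug and for the difference of the stimulation effects 0 of 24 passed.

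**Figure D3:**
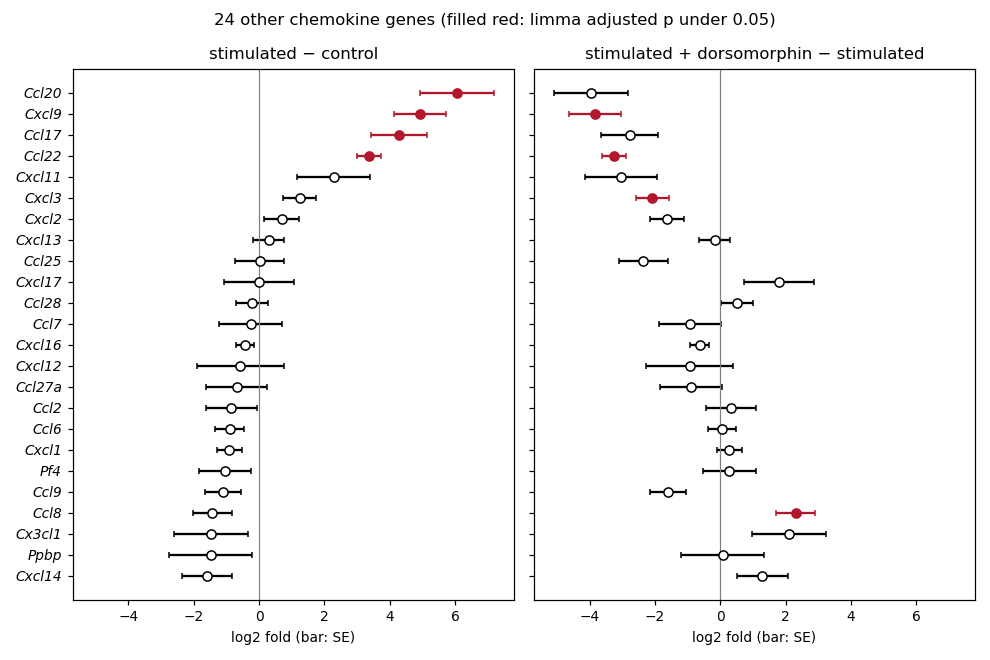
Log2 folds (horizontal axis, bars for SE) of 24 other chemokine genes with stimulation (left) and with dorsomorphin in stimulated cells (right), with filled red points for a limma adjusted p under 0.05. Ccl20, Cxcl9, Ccl17 and Ccl22 pass on the left, and Cxcl9, Ccl22, Cxcl3 and Ccl8 on the right.

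Interferon-induced genes were examined beside Cxcl10. Of 18 listed, 15 were on the array and 14 were tested, and Cxcl9 alone passed, up with stimulation and down with dorsomorphin in stimulated cells. Of all tested genes, 8.98% rose and 12.4% fell in these comparisons, so 1 of 14 does not exceed either share. The list medians were 0.93 and -1.33, beside -0.27 and 0.07 for all genes. None passed in the other comparisons. The summed signal of the 15 was 9473 and 41183 in stimulated cells with dorsomorphin, 33991 and 15098 in stimulated cells, 6651 and 9843 with dorsomorphin alone, and 10450 and 11317 in control cells. The highest sum was thus on replicate 2 of stimulated cells with dorsomorphin, the drug array on which Cxcl10 was high, and the next on stimulated replicate 1, the array with the highest Cxcl10. Irf1, Gbp2 and Gbp3, named here after their values were seen, were higher on replicate 2 of stimulated cells with dorsomorphin than on the other 7 arrays. They read log2 14.06, 13.76 and 12.94 there, and their signals of 17048, 13858 and 7868 made up most of the sum of 41183. Others of the list were not high there, such as Ifit2 at 9.74 against 9.96 on the other array of the group, Oas1a at 7.39 against 7.52 and Irf7 at 7.50 against 7.45, also named after their values were seen. On replicate 2 of stimulated cells with dorsomorphin, the other Cxcr3 ligands, Cxcl9 and Cxcl11, read 4.70 (under the floor) and 6.01. Both were lower than in stimulated cells, where the 2 genes read 7.41 to 7.68. Against the other array of the group, which lay under the floor for Cxcl11, that gene was higher, as Cxcl10 was. Cxcl11 was also above both control arrays (5.05 and 5.48). Cxcl9 lay under the floor on both arrays of the group, so no difference between them could be measured.

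**Figure D4:**
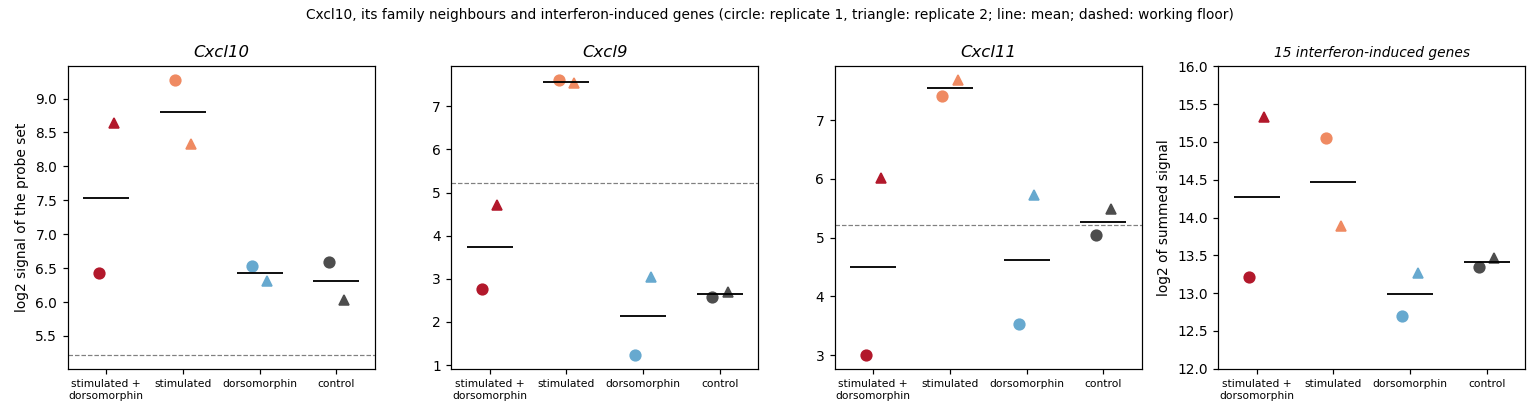
Log2 signal (vertical axis) of Cxcl10, Cxcl9 and Cxcl11 and log2 of the summed signal of 15 interferon-induced genes on each array, with circles for replicate 1, triangles for replicate 2, a line at the mean and a dashed line at the floor. Replicate 2 of stimulated cells with dorsomorphin is high for Cxcl10 (8.64) and for the summed genes, and lies below both stimulated arrays for Cxcl9 and Cxcl11. Most of the sum on that array comes from Irf1, Gbp2 and Gbp3.

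Of 7 listed receptors of these chemokines, 6 were on the array and 5 were tested. Cxcr3, the Cxcl10 receptor, fell with stimulation by 1.52 ± 0.32 log2 units (SE, limma adjusted p = 0.0246), 1 of 5 down and 0 up, where 14.4% of all genes fell. Ccr8, the Ccl1 receptor, read 7.37 and 5.90 in stimulated cells, against 2.29 and 2.80 in control cells. Its mean was at least 2.67-fold higher against the floor, without passing (limma adjusted p = 0.0553). With dorsomorphin in stimulated cells Xcr1, the Xcl1 receptor, passed downward (limma adjusted p = 0.0226, 1 of 5, where 12.4% of all genes fell). It did so with both agents against neither (0.0486, 1 of 5, where 6.31% of all genes fell). Both arrays with both agents lay under the floor of 5.22 (3.25 and 3.19). Replicate 2 also lay under it in stimulated cells (5.33 and 4.60) and in control cells (5.25 and 4.55). The Xcr1 calls thus rest on values near or under the floor, and no fold is given. The other comparisons had 0 of 5 past the threshold. The medians of the 5 were 0.06 with stimulation and -0.35 with dorsomorphin in stimulated cells.

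Transcription factors linked to chemokine promoters were listed as 20 genes, 18 of them tested. With stimulation 7 of 18 rose and 3 fell, beside 8.98% and 14.4% of all genes, with a median of 1.03. Irf4 rose by 6.11 ± 0.86, Tbx21, the Th1 factor T-bet, by 4.46 ± 0.49, and Irf8 by 4.02 ± 0.85 log2 units (SE, limma adjusted p = 0.0119, 0.00851 and 0.0254). Klf13, known in human T cells as a late activator of the CCL5 promoter, fell by 2.28 ± 0.47 (SE, 0.0238), and Nfatc3 and Stat4 were the others that fell. With dorsomorphin in stimulated cells 5 of 18 fell and 2 rose, beside 12.4% and 9.71% of all genes, with a median of -0.58. The log2 folds were -5.65 for Irf4, -3.96 for Irf8, -3.95 for Tbx21, -1.94 for Nfkb2 and -1.75 for Nfatc2. The 2 arrays with both agents differed, at 7.05 and 9.60 for Irf4, 6.87 and 9.59 for Irf8 and 6.63 and 7.94 for Tbx21. Nfatc2 read 7.10 and 7.68 on them, and Nfkb2 8.99 and 8.86. Nfatc3 rose by 1.49, and Klf13 rose by 2.07 ± 0.47 (SE, limma adjusted p = 0.0304). With dorsomorphin alone Rel, an NF-kappaB subunit, rose by 1.68 and Nfatc2 fell by 1.90. That is 1 of 18 up and 1 down, where 1.92% of all genes rose and 11.1% fell. Nfatc2 also fell with both agents against neither (1 of 18, where 6.31% of all genes fell). The counts of falls do not exceed these shares. In the other 2 comparisons 0 of 18 passed.

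Helper cytokine genes were set beside the chemokines as a list of 7. With stimulation 6 of 7 rose and 0 fell (8.98% of all genes rose), and with dorsomorphin in stimulated cells the 6 fell and 0 rose (12.4% of all genes fell), with medians of 5.86 and -6.12 log2 units. Il2 rose by 7.78 ± 1.05, Ifng by 6.14 ± 0.52 and Il4 by 5.86 ± 1.09 log2 units (SE), and Il3 at least 22.0-fold. For Il2, control replicate 1 lay under the floor (4.93), so the size of its rise is uncertain. Csf2 was the 1 that did not pass in either comparison, and 0 of 7 passed in the other 4.

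Natural killer cells and CD8 T cells also make Ccl3, Ccl4, Ccl5 and Xcl1. Of the NK cell markers 5 were on the array and 4 tested, and 0 passed in any comparison. Their summed signals were 203 and 217 in stimulated cells with dorsomorphin, 227 and 582 in stimulated cells, 127 and 160 with dorsomorphin alone, and 226 and 352 in control cells. Eomes, 1 of these markers, read log2 8.74 and 7.24 in stimulated cells, against 7.49 and 7.06 in control cells, and the groups overlapped. Its signal was 428 of the 582 on stimulated replicate 1. In the same groups Klrk1 read 6.07 and 4.91 against 6.02 and 5.24. Klre1 was lower in stimulated cells, at 5.12 and 4.71 (both under the floor) against 5.89 and 5.12. Ncr1, a defining marker, read log2 2.32 to 5.41 over all arrays beside the floor of 5.22. Cd8a and Cd8b1 summed to 176 and 281 in stimulated cells with dorsomorphin, 196 and 290 in stimulated cells, 160 and 316 with dorsomorphin alone, and 347 and 487 in control cells, and neither passed in any comparison. Their values differed in direction, with Cd8a at log2 6.77 and 6.33 in stimulated cells, against 5.91 and 5.76 in control cells, and Cd8b1 at 7.50 and 6.86 in stimulated cells, against 8.74 and 8.19 in control cells. The part of NK and CD8 T cells in the results was not tested. Of 5 B cell markers, Cd79b fell with stimulation (14.4% of all genes fell). Cd79b and Cd22 rose with dorsomorphin in stimulated cells (9.71% of all genes rose), and Ms4a1 fell with dorsomorphin alone (11.1% of all genes fell). The 1 mast cell and basophil marker and the 2 erythroid markers tested passed in no comparison.

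Genes with the pattern most like each member were sought by Pearson's r of log2 signal over the 8 arrays among 12957 tested genes, as a description. They were Lsm2, Tnf and Nudt19 for Ccl1 (r = 0.998, 0.993 and 0.992), Rpp40, Sephs2 and Dnajc11 for Ccl3 (0.995, 0.994 and 0.994), and Tox4, Pold2 and Ak7 for Ccl4 (0.995, 0.994 and 0.991). For Xcl1 they were Hivep3, Map3k8 and Mrps6 (0.991, 0.989 and 0.986), for Cxcl10 Iigp1, Socs2 and Cd274 (0.982, 0.978 and 0.970), and for Ccl5 Cpne7, Cdh1 and Spo11 (0.987, 0.983 and 0.975). The measure ignores the size of a change. Lsm2, for example, rose by 1.74 log2 units with stimulation and Tnf by 4.89.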

How the data were processed

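The authors deposited 1 linear intensity value per probe set and array (45101 probe sets, 8 arrays). RMA and affy are named, without versions, per the submitters' processing notes. The values differ from what RMA writes, being linear, and each array had a mean of 500 after 2% was trimmed at either end, so a scaling step is visible that no source names.

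The deposited intensity was put on the log2 scale with no other normalization. Probe sets were named from the platform annotation (34945 with 1 symbol, 932 with several, 9160 with none, 64 controls), keeping for each gene the one with the highest mean. The test covered 13983 of 18193 genes, those above the 40th percentile (signal 37.3) on at least 2 arrays. All 8 arrays entered 1 limma fit (3.58.1, R 4.3.3, two-sided, 4 residual and 1.90 prior degrees of freedom, no replicate block) with Benjamini-Hochberg adjustment over all tested genes and a threshold of 0.05. For a group with both arrays under that percentile, folds are bounds against it. Such a bound compares group means and does not take in the spread between arrays. The fit was tested on simulated data. The number of arrays limits the precision.

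The members, the gene lists and the tests were chosen with earlier results of these data known. Apart from members, the text names up to 4 called genes per list and comparison, by size of log2 fold, genes of counts of 5 or fewer, and the 3 genes best correlated with each member, leaving out clone symbols. Irf1, Cxcl9 and Cxcl11 stand in more than 1 list.

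Alternatives were median centring, quantile normalization, 32 added to the signal, no filter or a strict one (60th percentile), averaged probe sets, a fit of the compared arrays only, a trended and robust variance, the replicate block, and each array left out.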

Additional observations from a re-analysis of the deposited data

How the results depend on the processing

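Of the member results, 543 of the recomputed values kept direction and call, against 22 that gained a call, 22 that lost it and 19 that changed sign, all 19 without a call. Part of the 543 was fixed in advance. A log2 fold between 2 groups cannot change where only the variance model, the replicate block or arrays of other groups differ. The 543 also include results without a call in either fit, so the total does not measure how firm the calls are. The cause of the changes was not tested. Beside 3269 genes called for stimulation, 2146 were called with median centring (1101 up, 1045 down), 2122 without the filter and 1668 with the compared arrays only. Beside 3096 for dorsomorphin in stimulated cells, the compared arrays gave 0 genes and 0 members (limma, 4040 genes and 4 members at an unadjusted p under 0.05). Beside 1825 for dorsomorphin alone, counts were 786 (median centring), 2870 (32 added), 927 (no filter), 2968 (strict filter), 1058 (averaged probe sets), 883 (compared arrays) and 3103 (trended variance), and members called were 0 with median centring, no filter and compared arrays. Beside 1010 for both agents against neither, counts were 497, 2071, 264, 2075, 505, 0 and 2183 in the same order, with 1 member (Ccl3) called under the strict filter. Beside 12 for the difference of the stimulation effects, counts were 0 (median centring), 518 (quantile), 1565 (32 added), 0 (no filter), 1867 (strict filter), 3 (averaged probe sets) and 2036 (trended variance), with 2 members called under quantile and 4 under 32 added, strict filter and trended variance. Stimulation in the presence of the drug had 0 genes, and 2 with the strict filter.

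With each array left out, genes called ranged from 0 to 2940 for stimulation, 1000 to 2648 for dorsomorphin in stimulated cells, 0 to 1591 for dorsomorphin alone, 0 to 760 for both agents against neither and 0 to 803 for the difference, and members called from 0 to 5 for stimulation, 3 to 5 for dorsomorphin in stimulated cells, 0 to 1 for dorsomorphin alone and 0 for the others. Counts of 0 came without either control array, for both agents against neither also without either array with both agents, and for the difference without any array except stimulated replicate 1, whose removal gave 803. For stimulation 680 were called without stimulated replicate 2, and for dorsomorphin alone 210 without dorsomorphin replicate 2. For dorsomorphin in stimulated cells 1000 and 1760 were called without replicate 1 or 2 of the combined group, 1140 without stimulated replicate 2 and 1751 without either control array. At an unadjusted p under 0.05, the limma fits without an array that called 0 genes held 487 to 3813 genes.

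Sign changes, all without a call and those of Ccl1 with dorsomorphin alone among values under the floor, came with median centring for Ccl5 with dorsomorphin in stimulated cells (-0.13), Ccl1 and Ccl5 with dorsomorphin alone (0.25 and 0.0072), Ccl4 with both agents (0.048) and Ccl5 in the difference (-0.14), and with quantile normalization for Ccl1 with dorsomorphin alone (0.12) and Ccl4 with both agents (0.16). With an array left out, signs changed for Ccl5 with stimulation (range -1.22 to 0.031), for Ccl4, Ccl5 and Xcl1 with stimulation under the drug (-0.50 to 1.03, -0.57 to 0.14 and -0.77 to 2.40), for Ccl5 with dorsomorphin in stimulated cells (-0.58 to 0.67), for Ccl1, Ccl4 and Cxcl10 with dorsomorphin alone (-0.88 to 0.71, -1.19 to 0.34 and -0.17 to 0.39), for Xcl1 with both agents (-2.15 to 1.01) and for Ccl5 in the difference (-0.25 to 1.00).

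The replicate number did not qualify as a pairing, since same-numbered arrays deviated together at r = 0.0687 to 0.178 over the 6 pairs of groups, 4 of them over 0.1. With the replicate block, Ccl1 passed with both agents against neither (1 member, log2 fold 1.67, adjusted p = 0.0276), 0 genes passed for the difference beside 12, and no other member call changed.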

Other observations

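Ccl1 was higher on replicate 2 than on replicate 1 in both groups in which it lay above the floor, by 1.496 in stimulated cells with dorsomorphin and 1.30 in stimulated cells (log2), and both arrays of the other 2 groups lay under the floor. Ccl5, above the floor on all arrays, was lower on replicate 2 in the 4 groups, by -0.71 in stimulated cells with dorsomorphin, -1.25 in stimulated cells, -0.06 with dorsomorphin alone and -0.28 in control cells. Of 13983 tested genes, counted whether or not their values lay above the floor, 10.8% were higher on replicate 2 in all 4 groups and 19% were lower. The median signal was also lower on replicate 2 in each group. It was 58.7 against 72.9 in stimulated cells with dorsomorphin and 45.4 against 66.0 in stimulated cells. With dorsomorphin alone it was 56.0 against 64.7, and in control cells 65.9 against 74.5. The replicate differences given here were not adjusted for this. Alas2, an enzyme of haem synthesis in red cell precursors that was named after its values were seen, was higher on replicate 2 by 2.77 in stimulated cells with dorsomorphin and 3.51 with dorsomorphin alone. Its replicate 1 lay under the floor in stimulated cells (3.88) and control cells (1.75), against 7.18 and 9.08 on replicate 2. Hba-a1, the other erythroid marker on the array, did not share this. Counted whether or not its values lay above the floor, it differed by 0.91 in stimulated cells with dorsomorphin and -3.95 in stimulated cells. With dorsomorphin alone it differed by -1.65 and in control cells by -1.23 (replicate 2 minus replicate 1). Cxcl10 differed by 2.22 between the arrays of stimulated cells with dorsomorphin, both above the floor. What the replicate numbers stand for is not in the labels, and a cause was not tested.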
